A study of Homo sapiens with 12 samples.

Results

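The 4 HOX clusters, HOXA on chromosome 7, HOXB on chromosome 17, HOXC on chromosome 12 and HOXD on chromosome 2, were described for 3 histone H3 marks in 4 related human colorectal cancer lines. The clusters were taken as 4 windows on build hg19: chr7:27130000-27250000 for HOXA, chr17:46600000-46810000 for HOXB, chr12:54330000-54452000 for HOXC and chr2:176940000-177060000 for HOXD. All counted regions that overlapped a window were used, which gave 543 of 244278 regions, and 38 of the 39 HOX genes are described by name. Of the 543 regions, 152 had been counted for H3K4me3, 85 for H3K27me3 and 306 for H3K79me3.

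HOX genes encode homeodomain transcription factors that give body segments, and in the gut its regions from front to rear, their identity, and within a cluster the genes lie in the order in which they act along the body. Paralogs carry the same number in each cluster, with low numbers at the anterior and high numbers at the posterior end. Polycomb complexes keep HOX genes silent and place H3K27me3, Trithorax (MLL) complexes place H3K4me3 at active starts, and DOT1L methylates H3K79 over transcribed bodies. In leukaemias with MLL fusions DOT1L is best known for its action on the HOXA genes.

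DLD1, a colorectal adenocarcinoma line, was the parental line and is labelled epithelial. SA was derived from DLD1 colonies grown in soft agar and SPH from colonospheres, and both are labelled mesenchymal. METS came from a lung metastasis of a xenograft and is labelled epithelial, so that this line passed through a mouse host. Serum-supplemented McCoy's 5A medium was used for all 4 lines, with only antibiotics added besides, and the titles call the derivatives parental too. Each line is represented by 1 library of each mark. Whether a derivative is a clone or a pool is not stated, so a difference from DLD1 cannot be told apart from clonal or library variation.

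The sequences directly before the starts of 4 members are shown. HOXA4, HOXD13 and HOXD4 differed between lines in a mark, as described below, and HOXA13 held the most CG dinucleotides of the 4. Each sequence is the 250 bases before the start, 5′ to 3′ on the gene's strand. All are from RefSeq on build GRCh38.p14, which is not the build of the counts. Capitals mark CG dinucleotides, the substrate of DNA methylation, and CG reads the same on both strands.
HOXA4, chr7:27130758-27131007, minus strand: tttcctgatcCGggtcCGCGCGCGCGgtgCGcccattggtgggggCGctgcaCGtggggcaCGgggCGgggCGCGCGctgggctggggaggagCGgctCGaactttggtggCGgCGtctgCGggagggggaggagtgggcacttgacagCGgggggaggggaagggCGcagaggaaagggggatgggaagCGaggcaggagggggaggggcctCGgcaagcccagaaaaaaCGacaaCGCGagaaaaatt
HOXA13, chr7:27200092-27200341, minus strand: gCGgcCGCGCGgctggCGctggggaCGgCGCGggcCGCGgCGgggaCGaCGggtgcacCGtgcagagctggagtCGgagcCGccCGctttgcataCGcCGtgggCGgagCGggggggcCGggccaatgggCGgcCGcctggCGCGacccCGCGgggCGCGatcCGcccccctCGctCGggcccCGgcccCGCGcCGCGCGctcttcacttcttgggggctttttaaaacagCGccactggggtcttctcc
HOXD13, chr2:176092471-176092720, plus strand: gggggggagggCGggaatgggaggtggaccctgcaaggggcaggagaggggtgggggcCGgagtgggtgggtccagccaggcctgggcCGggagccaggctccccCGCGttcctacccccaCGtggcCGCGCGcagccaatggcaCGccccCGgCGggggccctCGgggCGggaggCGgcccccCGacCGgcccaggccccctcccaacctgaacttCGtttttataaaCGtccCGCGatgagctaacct
HOXD4, chr2:176151300-176151549, plus strand: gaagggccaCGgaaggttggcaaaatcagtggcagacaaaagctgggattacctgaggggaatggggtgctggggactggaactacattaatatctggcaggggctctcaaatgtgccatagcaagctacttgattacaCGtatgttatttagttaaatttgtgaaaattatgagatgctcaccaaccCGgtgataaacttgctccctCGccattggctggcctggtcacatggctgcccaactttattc
HOXA13 held 40 CG in these bases, more than 97.8% of the 35116 promoters in the table, HOXA4 held 26 and HOXD13 held 21. HOXD4 held 4, against a median of 11 over all promoters. Of the 38 members 20 matched an entry, 18 of them with a single start. The 13 of these with a counted H3K4me3 region over their row or within 500 bp of it had 11 to 40 CG with a median of 23, HOXC4 and HOXC5 sharing 1 start. The 5 without such a region were HOXA2, HOXB1, HOXD4, HOXD10 and HOXD12, and had 4 to 23 with a median of 8. HOXD10, with 23, and HOXD12, with 16, lay within the range of the 13 with such a region. A region over the row need not lie at the start whose bases were counted.

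The clusters also hold miRNA genes, among which the miR-196 family occurs in HOXA, HOXB and HOXC and targets HOX transcripts. The mature sequences are shown with the seed (bases 2 to 8) in capitals, because this shared seed is what ties the loci of the clusters together.
miR-196a-5p (MIR196A1 in HOXB and MIR196A2 in HOXC): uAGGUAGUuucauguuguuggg
miR-196b-5p (MIR196B in HOXA): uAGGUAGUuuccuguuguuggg
miR-615-3p (MIR615 in HOXC): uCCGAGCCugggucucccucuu
Both miR-196 forms share the seed AGGUAGU and differ by the substitution A12C, counted from the 5′ end with the base of miR-196a-5p first.

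Counts per library came to 6722508 to 7753937 for H3K4me3, 15605814 to 20410151 for H3K27me3 and 6165169 to 7521451 for H3K79me3, and levels are given as CPM, that is counts scaled to a common library total. H3K4me3 and H3K79me3 had been counted in short regions with medians of 433 and 388 bp, whereas H3K27me3 had been counted over rows that follow gene bodies, antisense genes included. H3K27me3 levels are therefore given per kb of row. Rows overlap where transcripts do, so that the 46.4 kb row of HOXA3 also covers HOXA4, HOXA5 and HOXA6. Likewise the rows of HOXB3 (56.0 kb), HOXC6 (40.2 kb), HOXC4 (39.1 kb), HOXD3 (36.5 kb) and HOXB7 (26.3 kb) cover or overlap neighbouring members. A fold is the ratio of 2 CPM values, and the exact 95% Clopper-Pearson interval in brackets takes in counting error alone. A single library per line allows no p-value between a derivative and DLD1. How the counted regions were chosen is not given in the sources used here, so a stretch with no counted region is not a measured 0.

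As a check of the labelled cell type, the H3K4me3 region at CDX2, the homeobox gene of intestinal epithelium, had 86.3, 88.1, 69.1 and 83.4 CPM in DLD1, SA, SPH and METS. At CDH1, which encodes E-cadherin, the values were 88.7, 94.5, 80.7 and 91.3 CPM, and at the mesenchymal genes ZEB1 and VIM they were 55.5 to 63.8 and 31.2 to 38.5 CPM. At PTPRC, which encodes the leukocyte antigen CD45, they were 0 to 0.42 CPM. A weak CDH2 region, at the gene of N-cadherin, had 3.72, 1.81, 4.89 and 1.78 CPM. H3K27me3 over ZEB1 was 0.871, 0.529, 0.421 and 0.452 CPM per kb, past 2-fold lower in SPH, and over ZEB2 it was 0.581, 0.858, 1.15 and 0.951. Of the 15 markers listed 13 could be placed. Among these the epithelial markers CDX1 and KRT20 and the mesenchymal marker FN1 had no counted H3K4me3 region in any line. The markers of a class thus did not all carry the mark. At the epithelial and mesenchymal markers with a counted H3K4me3 region, the 2-fold mark was passed only by a weak region of VIL1 in METS, with 0.45 CPM in DLD1 and 1.92 CPM in METS.

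The clusters differed in how much of the Polycomb mark they carried. In DLD1 the median H3K27me3 over the member rows was 2.44 CPM per kb in HOXC, 1.0 in HOXD, 0.352 in HOXA and 0.167 in HOXB, where the median of all 31379 rows of at least 1 kb was 0.317. Of the 9 HOXC members 6 lay above the 90th percentile of those rows in every line. Of the 10 HOXB members 8 lay below the median in DLD1. The order of HOXC and HOXD above HOXA and HOXB held in each of the 4 lines. In bulk chromatin such as this, fewer cells with a mark and less mark per cell cannot be told apart.

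**Figure D1:**
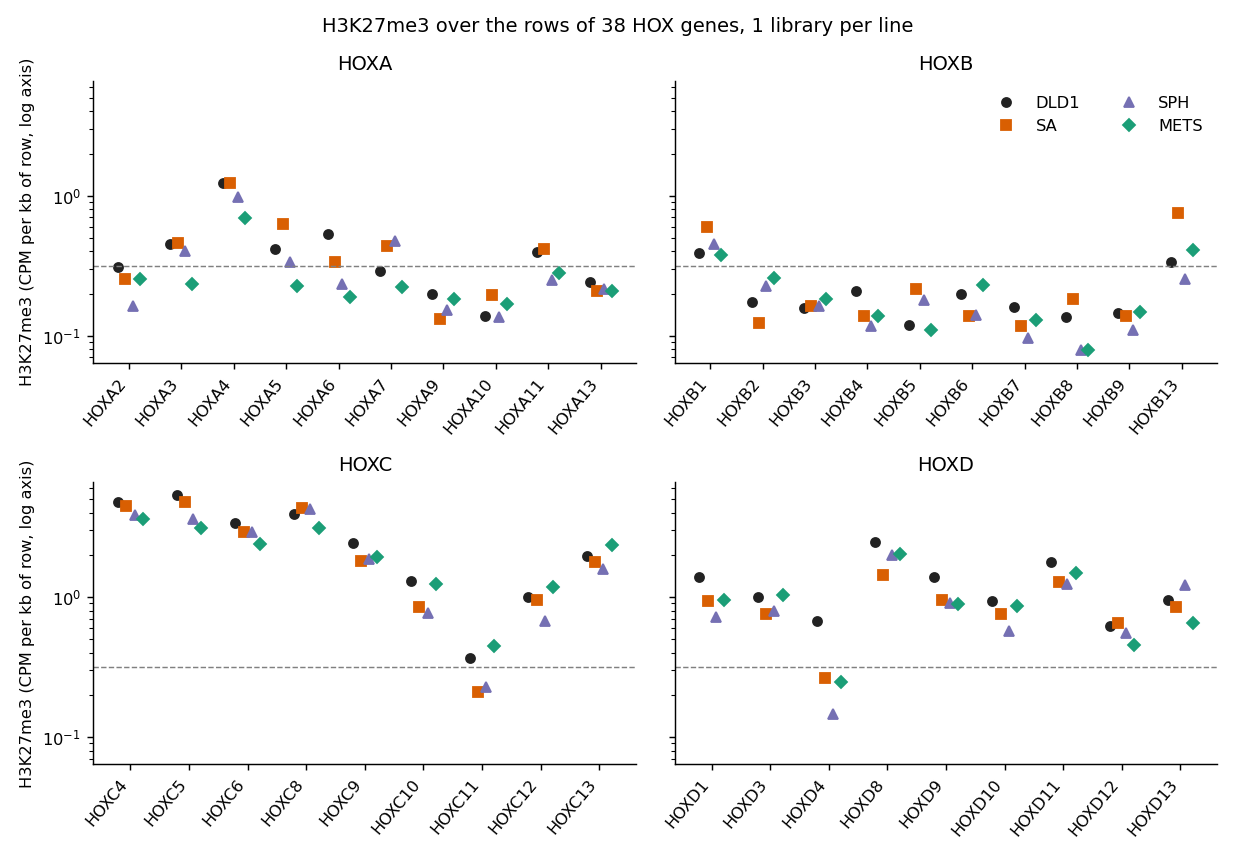
H3K27me3 in CPM per kb of row (log axis) for the 38 member rows in 4 panels by cluster, ordered by paralog number, with 1 point per line and library. The dashed line is the median over all rows of at least 1 kb in DLD1 (0.317). HOXC and HOXD points lie mostly above it, HOXB points mostly below it, and HOXA is mixed with HOXA4 on top.

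H3K4me3 had been counted at 56 regions in HOXA, 66 in HOXB, 17 in HOXC and 13 in HOXD. Per kb of these regions the level in DLD1 was 46.4 CPM in HOXD, 37.4 in HOXA, 36.0 in HOXB and 18.9 in HOXC. HOXD thus had few regions with the highest average, and HOXC few with the lowest. The single region of highest mean over the lines had 85.2 CPM in HOXA and 73.5 in HOXB in DLD1. In HOXD it had 43.6 and in HOXC 26.2. H3K79me3 had 131 counted regions in HOXA and 174 in HOXB, against 1 in HOXD and 0 in HOXC. A member row had a counted H3K4me3 region within 1000 bp of its 5′ end in 9 of 10 HOXA, 8 of 10 HOXB, 5 of 9 HOXC and 6 of 9 HOXD genes, a window chosen after the values were seen. No counted H3K4me3 region lay over or within 500 bp of HOXA2, HOXB1, HOXB2, HOXC12, HOXC13, HOXD4, HOXD10 or HOXD12. No counted H3K79me3 region lay over 19 of the 38 members: all 9 of HOXC, 8 of 9 in HOXD, and HOXB1 and HOXB13.

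**Figure D2:**
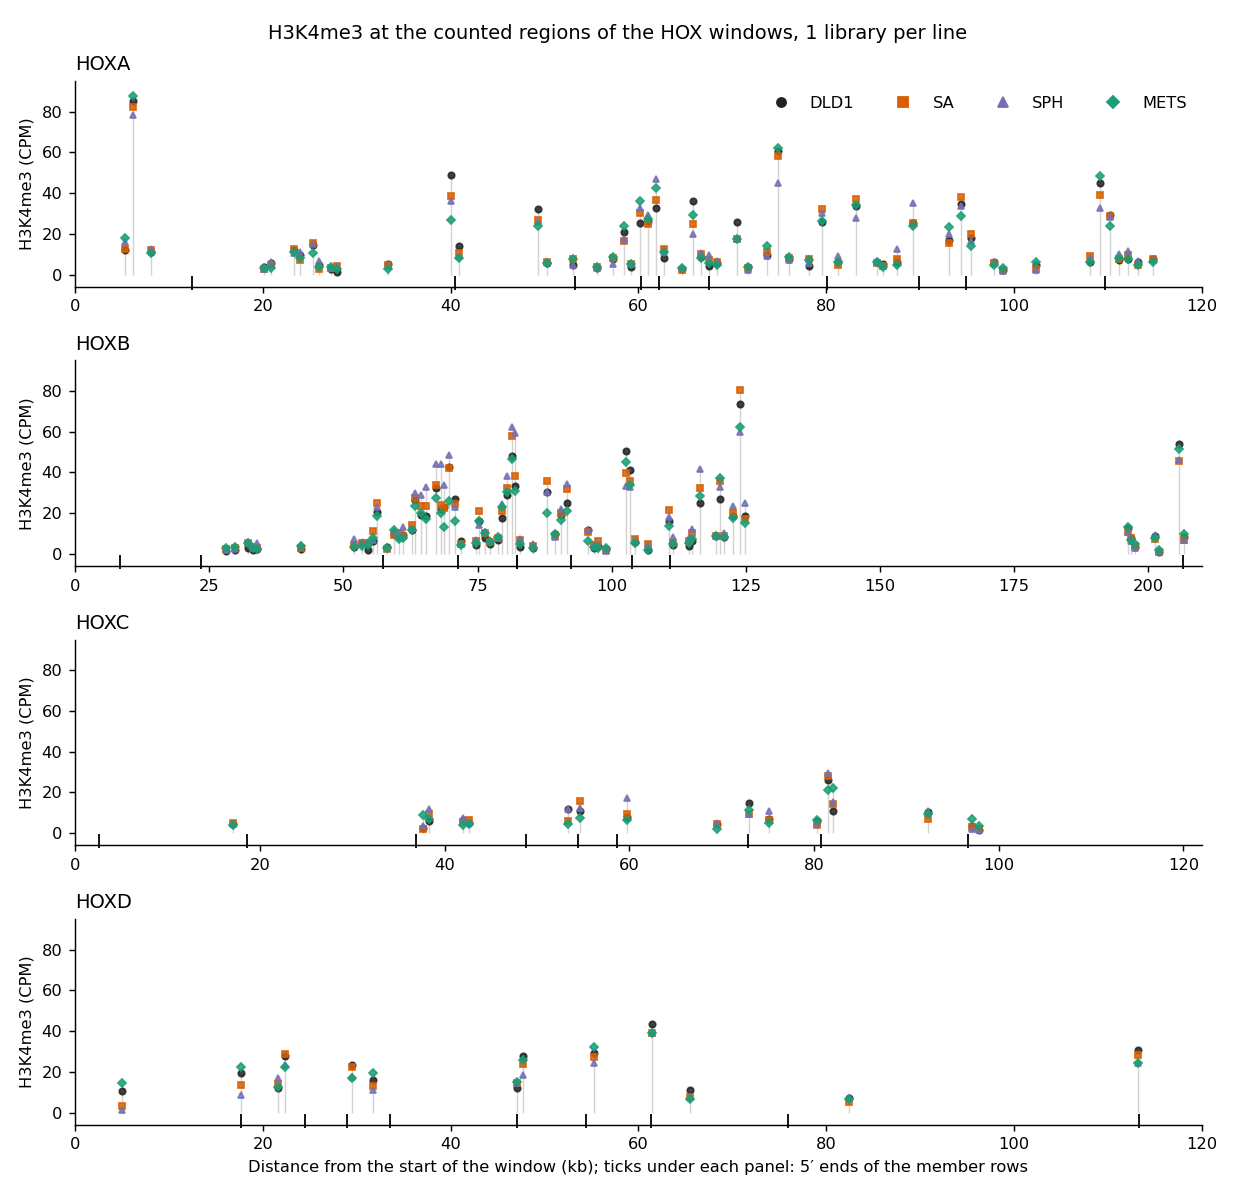
H3K4me3 (CPM) at the 152 counted regions against the distance from the start of each window (kb), 1 point per region and line; ticks under each panel mark the 5′ ends of the member rows. HOXA and HOXB are dotted with regions over most of the gene-bearing stretch, and HOXC and HOXD hold 17 and 13.

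Between lines, few HOX regions were 2-fold apart (in CPM + 0.5). For H3K4me3, 3 of 152 were 2-fold higher and 1 lower in SA, where 0.544% and 2.17% of all regions were. In SPH 6 were higher and 2 lower, against 3.69% and 3.44% of all regions, and in METS 1 was higher and 1 lower, against 4.02% and 1.12%. For H3K27me3, of 83 rows with a count none passed in SA (0.341% of all rows higher, 0.506% lower). Only lower rows passed in SPH (2 rows, background 1.48%, with 0.727% higher) and METS (4 rows, all in HOXA, background 0.786%, with 0.520% higher). The added 0.5 CPM weighs on rows with few counts, the median row having 1.41 CPM in DLD1. Thus HOXB13, HOXD4 and HOXC-AS2 in SA and HOXD4 in METS did not pass, although their plain folds given below were past 2. For H3K79me3, of 306 regions 1 was higher and 3 lower in SA (background 1.09% and 2.33%), 0 higher and 17 lower in SPH (3.09% and 5.20%), and 6 higher and 9 lower in METS (7.24% and 2.09%). The differences described next are mostly smaller than 2-fold.

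Over the member rows, H3K27me3 was below DLD1 in 26 of 38 members in SA, 31 in SPH and 28 in METS, with median folds of 0.876, 0.765 and 0.816. Over all rows with enough counts for a fold, 65.0%, 62.9% and 54.3% were below DLD1, with median folds of 0.897, 0.916 and 0.975, so that the SA values of the members were close to the background. The interval of the fold lay below 1 for 8, 15 and 10 members, where 20.6%, 21.6% and 12.7% of all rows did. It lay above 1 for HOXB13 in SA and HOXC13 in METS, where 8.56% and 10.8% of all rows did, and for none in SPH, where 9.60% did. Rows with many counts, as in HOXC, have narrower intervals, and overlapping rows share reads. With TMM factors in place of library totals, every H3K27me3 log2 ratio was higher by 0.14, 0.12 and 0.04 in SA, SPH and METS. Then 21, 30 and 28 members were below DLD1 and the interval lay below 1 for 5, 12 and 10. It lay above 1 for HOXB13 and HOXC8 in SA, HOXA7 and HOXC8 in SPH and HOXC13 in METS.

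HOXC was the cluster with the most H3K27me3, and its level was lower in every derivative. Over 6 non-overlapping rows it held 2.56, 2.20, 2.06 and 2.02 CPM per kb in DLD1, SA, SPH and METS, folds of 0.858 (0.817 to 0.901), 0.805 (0.767 to 0.846) and 0.788 (0.751 to 0.828). Over all rows with a fold, the median folds were 0.897, 0.916 and 0.975 in SA, SPH and METS. Of the HOXC folds, that of SA lay nearest to this background. The highest HOXC rows were those of the anterior members HOXC5, HOXC4, HOXC8 and HOXC6, and HOXC11 was lowest with 0.369 CPM per kb in DLD1. HOXC5 had 5.34, 4.77, 3.62 and 3.09 CPM per kb in DLD1, SA, SPH and METS, which was 1.48-fold (1.21 to 1.81) lower in SPH and 1.73-fold (1.40 to 2.14) lower in METS. HOXC4 had 4.76, 4.50, 3.84 and 3.61 in the same order, 1.32-fold (1.25 to 1.39) lower in METS. Its SA value was below DLD1 by library totals and above it with TMM factors (fold 1.04). HOXC8, a gene of the thoracic segments, had 3.91, 4.30, 4.28 and 3.10, so that only METS lay below DLD1. METS was thus the lowest of the 4 lines at HOXC4, HOXC5, HOXC6 and HOXC8.

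The posterior members of HOXC had another order of lines. HOXC10 had 1.30, 0.853, 0.770 and 1.24 CPM per kb in DLD1, SA, SPH and METS, 1.53-fold (1.14 to 2.06) lower in SA and 1.69-fold (1.26 to 2.28) lower in SPH. HOXC11 had 0.369, 0.211, 0.228 and 0.447. HOXC13, known for its part in hair follicles, had 1.95, 1.77, 1.59 and 2.35, 1.21-fold (1.02 to 1.43) higher in METS. HOXC12 had 0.995, 0.95, 0.677 and 1.17. At each of these 4 members both mesenchymal lines lay below both epithelial lines by library totals, while with TMM factors the SA folds of HOXC12 and HOXC13 were 1.05 and 1.0. In the test over lines, adjusted p was 0.276 for HOXC10, 0.342 for HOXC11, 0.704 for HOXC12 and 0.674 for HOXC13 (edgeR's quasi-likelihood test, Benjamini-Hochberg over all rows), so none passed.

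HOTAIR, the long noncoding RNA known for its binding of Polycomb complexes, lies between HOXC11 and HOXC12, and its row too was lower in both mesenchymal lines than in both epithelial lines. Its row had 132, 121, 112 and 259 counts in DLD1, SA, SPH and METS, which is 0.669, 0.506, 0.434 and 1.01 CPM per kb. Relative to DLD1 this was 1.54-fold (1.19 to 2.0) lower in SPH and 1.51-fold (1.22 to 1.88) higher in METS. Its adjusted p of 0.0593 (edgeR) was the lowest of the HOX rows and did not pass. HOXC-AS2, an antisense gene whose row overlaps that of HOXC9, had 2.63, 1.26, 1.14 and 1.57 CPM per kb, 2.08-fold (1.54 to 2.83) lower in SA, 2.31-fold (1.71 to 3.15) lower in SPH and 1.67-fold (1.27 to 2.21) lower in METS, and its adjusted p was 0.159. MIR196A2 had 16, 8, 8 and 10 counts and MIR615 had 17, 15, 11 and 11, so that at both miRNA rows DLD1 was highest. ChIP reads carry no strand of transcription, so the signal of an antisense row and its partner cannot be told apart.

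H3K4me3 in HOXC came from 17 mostly weak regions. The strongest, chr12:54411284-54411673 in the rows of HOXC4 and HOXC6, had 26.2, 28.0, 29.6 and 21.1 CPM in DLD1, SA, SPH and METS. The next region, chr12:54411887-54412307, had 11.0, 14.3, 15.4 and 22.0, 2.0-fold (1.51 to 2.67) higher in METS. At chr12:54367486-54367952, shared by the rows of HOTAIR and HOXC11, METS had 8.76 CPM and the other lines 1.93 to 3.36, 3.47-fold (2.01 to 6.31) higher than DLD1. At its neighbour chr12:54368092-54368463 SPH was highest with 11.9 CPM, 2.0-fold (1.36 to 2.99) above the 5.95 of DLD1. The HOXC10 region chr12:54383210-54383621 had 11.8, 6.06, 11.7 and 4.66, 1.94-fold (1.33 to 2.84) lower in SA and 2.52-fold (1.67 to 3.89) lower in METS. The HOXC9 region chr12:54389568-54390045 had 7.88, 9.54, 17.1 and 6.57, 2.16-fold (1.55 to 3.05) higher in SPH. Single regions thus differed in which line was highest. Summed over the 17 regions the fold was 0.993 in SA, 1.17 (1.07 to 1.27) in SPH and 0.963 in METS.

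In HOXD, H3K27me3 was below DLD1 in 8 of 9 members in each derivative, with median folds of 0.727, 0.697 and 0.729 in SA, SPH and METS. Of all rows with a fold, 65.0%, 62.9% and 54.3% were below DLD1. The interval lay below 1 for 4, 6 and 2 of the 9 members, where 20.6%, 21.6% and 12.7% of all rows did. Some of the member rows share reads. In the sum METS was closer to DLD1 than in the median over the members. Over 9 non-overlapping rows it held 1.08, 0.826, 0.810 and 1.03 CPM per kb in DLD1, SA, SPH and METS, folds of 0.768 (0.711 to 0.830), 0.753 (0.698 to 0.813) and 0.956 (0.890 to 1.03). HOXD8 was the highest member with 2.45, 1.43, 1.99 and 2.04, 1.72-fold (1.28 to 2.31) lower in SA. HOXD1, the most anterior member, had 1.40, 0.933, 0.720 and 0.952, 1.94-fold (1.24 to 3.07) lower in SPH. HOXD3 had 1.0, 0.762, 0.794 and 1.03, with both mesenchymal lines below both epithelial lines and an adjusted p of 0.573 (edgeR).

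HOXD4, whose start is shown above with 4 CG, had few counts: 21, 10, 6 and 10 in DLD1, SA, SPH and METS, which is 0.671, 0.264, 0.147 and 0.246 CPM per kb. It was 2.54-fold (1.15 to 6.05) lower in SA, 4.58-fold (1.79 to 13.9) lower in SPH and 2.73-fold (1.23 to 6.49) lower in METS. All 3 derivatives lay below DLD1, and the intervals are wide. It was lower in a labelled epithelial line too, and its adjusted p between the mesenchymal and epithelial lines was 0.523 (edgeR). HOXD13, the most posterior member, departed from the cluster with 0.946, 0.851, 1.22 and 0.647, so that SPH was highest and METS lowest.

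The clearest H3K4me3 difference of all 4 clusters was in EVX2, an even-skipped type homeobox gene that borders the posterior end of HOXD. The region chr2:176944733-176945309, in the middle of the EVX2 row and away from both of its ends, had 71, 25, 10 and 106 counts in DLD1, SA, SPH and METS. As levels these are 10.6, 3.22, 1.40 and 14.5 CPM, 3.28-fold (2.05 to 5.39) lower in SA, 7.56-fold (3.88 to 16.4) lower in SPH and 1.37-fold (1.01 to 1.88) higher in METS. Both mesenchymal lines lay below both epithelial lines, and this was the 1 HOX region of 152 that passed the test over lines, where 0.292% of all H3K4me3 regions passed lower and 0.00561% higher. Its log2 difference was -2.42 with an adjusted p of 0.0269 (edgeR). With TMM factors the adjusted p was 0.0550 and the call was lost, while it held with DESeq2 (0.0133) and without each line in turn (4.08e-05 to 0.0474). H3K27me3 over the EVX2 row was 1.0, 1.03, 0.601 and 0.689 CPM per kb, so that the 2 marks did not order the lines alike.

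HOXD13 lies next to EVX2, and its H3K4me3 region chr2:176957489-176957922, at the 5′ end of the row, had the same order of lines with a smaller gap. It held 19.5, 13.4, 8.53 and 22.5 CPM in DLD1, SA, SPH and METS, 1.45-fold (1.11 to 1.90) lower in SA and 2.29-fold (1.67 to 3.15) lower in SPH, with a log2 difference of -0.93 and an adjusted p of 0.195 (edgeR). The HOXD11 region chr2:176969253-176969675 had 23.4, 22.6, 17.6 and 16.8 CPM, lowest in METS with a fold of 0.721 (0.565 to 0.919). The HOXD9 region chr2:176987529-176987949 had 27.5, 23.9, 18.6 and 25.9, lowest in SPH with a fold of 0.676 (0.537 to 0.849). The weaker region chr2:177005292-177005713 in the HOXD3 row had 11.3, 7.74, 7.69 and 6.57, with all 3 derivatives below DLD1. The lines were closer at the HOXD8 region chr2:176995083-176995546, with 29.0, 27.2, 24.3 and 32.3 CPM. The region chr2:177001278-177001705, shared by HOXD3 and HOXD-AS2, had 43.6, 38.9, 39.3 and 39.0. At chr2:177052930-177053365, shared by HOXD1 and HAGLR, the values were 30.6, 28.4, 24.5 and 24.4. Summed over its 13 regions HOXD H3K4me3 had a fold of 0.890 (0.834 to 0.95), 0.794 (0.742 to 0.850) and 0.953 in SA, SPH and METS.

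In HOXA the line that stood apart was METS, with less H3K27me3 over the anterior genes. Over 8 non-overlapping rows HOXA held 0.373, 0.357, 0.319 and 0.243 CPM per kb in DLD1, SA, SPH and METS, 1.54-fold lower in METS (fold 0.650, 0.572 to 0.738). HOXA4 was the highest member with 1.23, 1.22, 0.983 and 0.688, 1.79-fold (1.11 to 2.91) lower in METS. The long HOXA3 row had 0.456, 0.462, 0.401 and 0.235, 1.94-fold (1.63 to 2.31) lower. HOXA6 had 0.529, 0.335, 0.235 and 0.189, 2.25-fold (1.34 to 3.84) lower in SPH and 2.79-fold (1.61 to 5.01) lower in METS. The antisense gene HOXA-AS3, which spans HOXA4 to HOXA6, had 192, 216, 202 and 99 counts, 2.52-fold (1.97 to 3.25) lower in METS. The 4 HOXA rows that passed 2-fold in METS, namely HOXA6, HOXA-AS3 and the unnamed rows chr7:27168588-27192180 and chr7:27186985-27192217, overlap each other and so describe 1 stretch. Beyond it the posterior members HOXA9, HOXA10 and HOXA13 had 0.131 to 0.243 CPM per kb in all 4 lines, and HOXA11 had 0.251 to 0.413. METS was below DLD1 at every HOXA member except HOXA10. It was the lowest of the 4 lines at HOXA3 to HOXA7 and at none of HOXA2, HOXA9, HOXA10, HOXA11 and HOXA13.

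H3K4me3 in HOXA hardly differed in sum, with 37.4, 36.7, 36.4 and 36.5 CPM per kb of counted region in DLD1, SA, SPH and METS. Its strongest region, chr7:27135908-27136435 at HOTAIRM1, a noncoding RNA known from myeloid cells, had 85.2, 82.4, 78.4 and 87.8 CPM. The posterior HOXA9 region chr7:27204609-27205078 had 60.5, 58.0, 44.7 and 62.2. The region at the start of HOXA13, chr7:27238933-27239417, also lies over HOTTIP, a noncoding RNA known to bring MLL complexes to these genes, and had 45.1, 39.1, 32.6 and 48.5. At all 3 of these, SPH was lowest and METS highest, but this order did not hold along the cluster. At the start of HOXA10, chr7:27218954-27219433 had 25.3, 25.4, 34.9 and 24.1 CPM, highest in SPH and lowest in METS. At the start of HOXA11, chr7:27224116-27224584 had 34.7, 38.3, 33.7 and 28.9, lowest in METS.

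Over HOXA2 to HOXA4, however, METS had less H3K4me3 and H3K79me3 in sum. The HOXA4 region chr7:27169764-27170284, next to the start shown above, had 48.9, 38.4, 36.3 and 26.6 CPM, 1.84-fold (1.54 to 2.21) lower in METS. Over that section, delimited once the values were known, the H3K4me3 fold in METS was 0.692 (0.618 to 0.774), with 8 of 10 regions lower. Over all H3K4me3 regions the median log2 ratio of METS to DLD1 was -0.003, and the share of them that was lower was not determined. The H3K79me3 fold over the same section was 0.781, with 28 of 36 regions lower. Over all H3K79me3 regions with a count, 43.7% were lower in METS. Of the genome's regions with a mean of at least 10 CPM, 67.1% of those on a counted H3K4me3 region and 34.0% of the others were higher in METS. The H3K79me3 region on the HOXA4 H3K4me3 region, chr7:27169781-27170262, went the other way with 17.9, 11.1, 32.4 and 27.5 CPM, 1.53-fold (1.22 to 1.93) higher in METS. In the next section, HOXA5 to HOXA7, which holds the HOXA6 row, METS did not have less of these marks in sum. The METS fold there was 1.06 (0.989 to 1.13) for H3K4me3, with 12 of 16 regions higher. For H3K79me3 it was 1.12 (1.08 to 1.17), with 18 of 30 regions higher. At HOXA7 the H3K4me3 regions differed in direction. The strongest, chr7:27195553-27196000, had 36.3, 24.8, 20.1 and 29.0 CPM, 1.8-fold (1.46 to 2.23) lower in SPH. The weaker chr7:27197294-27197730 at the 5′ end of the row had 4.31, 6.96, 9.51 and 5.48, 2.20-fold (1.41 to 3.53) higher in SPH.

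H3K79me3 was higher in METS at HOXA5 and HOXA9. The HOXA5 region chr7:27182583-27183163 had 12.4, 16.6, 25 and 45.1 CPM in DLD1, SA, SPH and METS, 2.02-fold (1.55 to 2.64) higher in SPH and 3.65-fold (2.88 to 4.66) higher in METS. At chr7:27184458-27184906 the values were 15.7, 14.3, 28.1 and 32.0, 2.04-fold (1.62 to 2.58) higher in METS. The H3K4me3 region at HOXA5, at 4.76, 7.61, 4.47 and 7.67 CPM, was weak in every line. HOXA9, a gene known for its role in leukaemia, had 34.7, 26.5, 57.4 and 63.3 at chr7:27204605-27205087, 1.82-fold (1.56 to 2.14) higher in METS. The opposite direction was seen within HOXA3, where chr7:27151889-27152176 had 13.0, 15.0, 6.65 and 5.13, 2.54-fold (1.70 to 3.89) lower in METS. Summed over all 131 regions, the HOXA level was 53.6, 47.6, 60.5 and 52.7 CPM per kb of region.

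**Figure D3:**
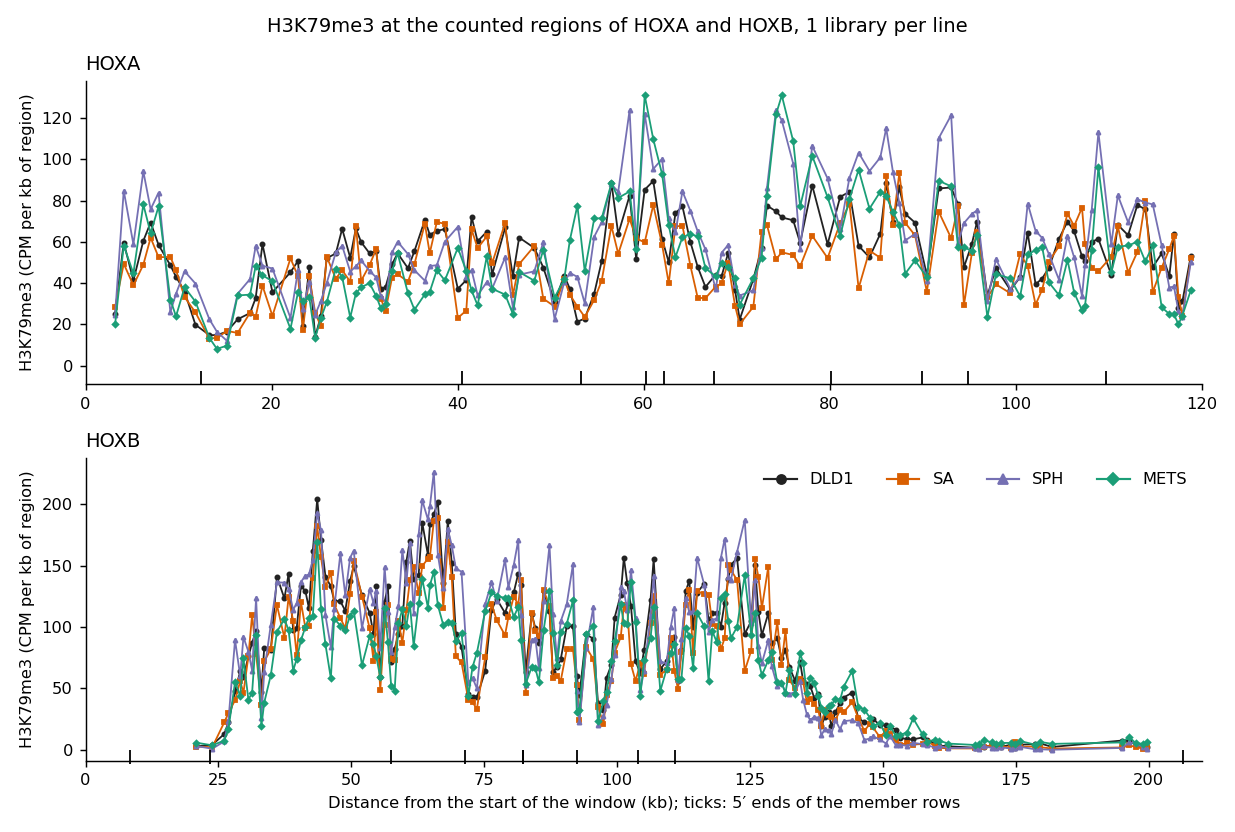
H3K79me3 (CPM per kb of region) at the 131 HOXA and 174 HOXB regions against the distance from the start of the window (kb), 1 point per region and line; ticks mark the 5′ ends of the member rows. The mark covers HOXA from end to end, and in HOXB it is high from HOXB3 to LINC03057 and low towards HOXB13.

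In SPH, and in HOXA also in METS, H3K79me3 was higher than in DLD1 on H3K4me3 regions and lower off them. In HOXA the 52 H3K79me3 regions that overlapped a counted H3K4me3 region had median log2 ratios to DLD1 of -0.29, 0.39 and 0.19 in SA, SPH and METS, and the 79 others had -0.10, -0.08 and -0.39. On H3K4me3, 43 of 52 (82.7%) were higher in SPH and 35 of 52 (67.3%) in METS. Over the genome, 61.3% and 67.4% of the regions on H3K4me3 were higher in SPH and METS. Of those with a mean of at least 10 CPM, 73.9% and 67.1% were. The METS share in HOXA was thus that of the genome. In HOXB the 60 overlapping regions had -0.24, 0.23 and -0.10 and the 114 others -0.17, -0.31 and -0.21. The 114 include nearly all of the 40 regions beyond LINC03057, described below, which were all lower in SPH. In HOXB, position and overlap with H3K4me3 are therefore not separated by this division. Over all H3K79me3 regions of the genome with a mean of at least 10 CPM, the 4688 on H3K4me3 had -0.19, 0.37 and 0.28 and the 22771 others 0.05, -0.06 and -0.17. The difference between both kinds of region had the same sign throughout the tables in SPH and METS, and is not particular to the HOX clusters. The division was chosen after the values were seen.

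**Figure D4:**
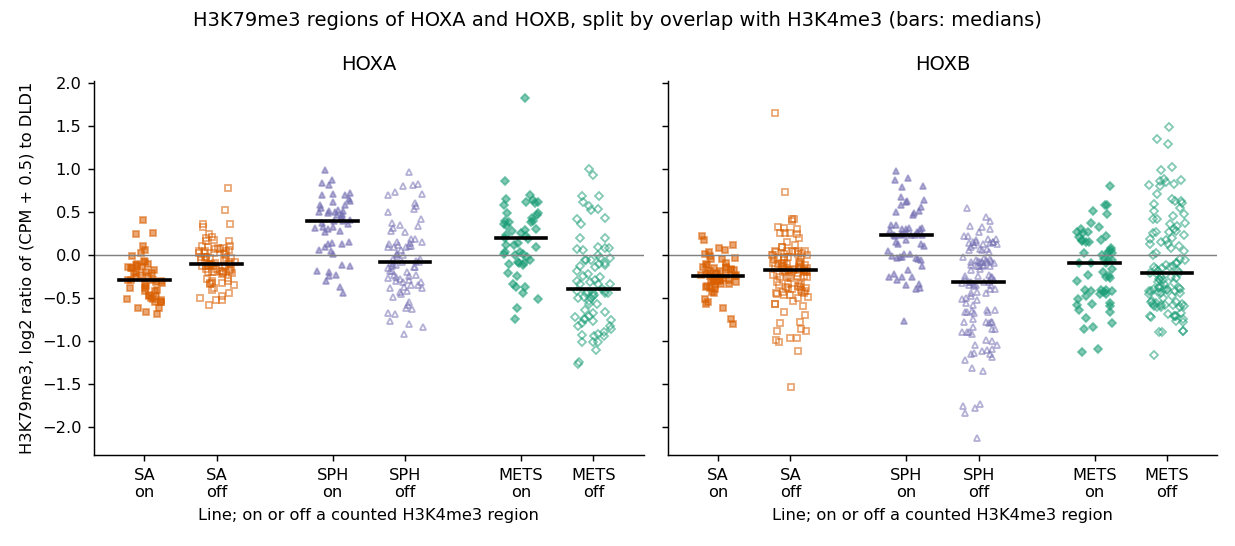
Log2 ratio of (CPM + 0.5) to DLD1 for H3K79me3 in HOXA and HOXB, by line and by whether the region overlaps a counted H3K4me3 region; points are regions and bars are medians. In SPH the regions on H3K4me3 have medians of 0.39 (HOXA) and 0.23 (HOXB), and those off it -0.08 and -0.31. The HOXB regions off H3K4me3 include nearly all of those beyond LINC03057.

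HOXB had the least H3K27me3 and the most H3K79me3. Its H3K27me3 over 11 non-overlapping rows was 0.173, 0.167, 0.164 and 0.185 CPM per kb in DLD1, SA, SPH and METS. The lowest member in DLD1 was HOXB5 with 0.118 and the highest was HOXB1 with 0.389. HOXB13, the posterior gene of hindgut and prostate that lies apart from the rest, had 0.334, 0.755, 0.255 and 0.413, 2.26-fold (1.38 to 3.82) higher in SA. Its H3K4me3 region chr17:46805548-46806048 had 53.8, 45.4, 46.1 and 51.6 CPM, among the stronger HOX regions in all 4 lines. Thus SA had the most H3K27me3 at HOXB13 and the least H3K4me3, close to that of SPH.

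H3K4me3 in HOXB was higher in SPH. Summed over its 66 regions it was 36.0, 39.4, 42.7 and 33.4 CPM per kb of region, folds of 1.09 (1.06 to 1.13), 1.19 (1.15 to 1.23) and 0.929 (0.898 to 0.961) in SA, SPH and METS. From HOXB2 to HOXB5, 22 of 24 regions were higher in SPH, with a fold of 1.34 (1.26 to 1.42). Over all H3K4me3 regions the median log2 ratio of SPH to DLD1 was 0.03, and the share of them that was higher was not determined. At chr17:46667950-46668383, next to HOXB5, the values were 22.2, 24.0, 44.0 and 20.1 CPM, 1.99-fold (1.63 to 2.43) higher in SPH. At chr17:46668643-46669031, in the HOXB5 row, they were 23.1, 22.6, 34.0 and 13.4, 1.72-fold (1.33 to 2.24) lower in METS. At chr17:46681732-46682153, near the 5′ end of the HOXB6 row, they were 33.3, 38.4, 59.4 and 30.8, 1.78-fold (1.51 to 2.11) higher in SPH with an adjusted p of 0.214 over lines (edgeR). HOXB9 went the other way, with 50.6, 39.9, 33.4 and 45.3 at chr17:46702436-46702890, lowest in SPH. The strongest HOXB region, chr17:46723596-46724197 at the noncoding gene LINC03057, had 73.5, 80.3, 59.8 and 62.2.

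H3K79me3 summed over HOXB was lower in SA and METS than in DLD1, and beyond LINC03057 it was lower in SPH. Summed over 174 regions it was 81.5, 73.0, 84.0 and 69.1 CPM per kb of region, a fold of 0.896 (0.883 to 0.909) in SA and 0.848 (0.835 to 0.861) in METS. From HOXB2 to HOXB5 the METS fold was 0.751 (0.734 to 0.769), with 50 of 56 regions lower, and the SA fold was 0.903 with 45 of 56 lower. Over all H3K79me3 regions with a count, 43.7% were lower in METS and 51.7% in SA. Of the genome's regions with a mean of at least 10 CPM, 67.1% on H3K4me3 and 34.0% off it were higher in METS. In SA, 25.1% and 57.9% were. The strongest region, chr17:46663087-46663606 in the HOXB3 row, had 96.1, 77.8, 106 and 72.3 CPM, and chr17:46646043-46646256 in the same row had 28.5, 30.8, 17.8 and 12.4, 2.29-fold (1.76 to 3.0) lower in METS. METS had the least H3K79me3 at both. From HOXB6 to HOXB9 SA was instead lowest, with 39.0, 33.9, 42.3 and 38.1 CPM per kb in the 4 lines.

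Between LINC03057 and the next row, chr17:46724386-46760728, H3K79me3 continued over 36.3 kb that no member row covers. All 40 counted regions were lower in SPH than in DLD1, where 30 of 40 were in SA and 17 of 40 in METS. Over all H3K79me3 regions with a count, 58.6%, 51.7% and 43.7% were lower in SPH, SA and METS. The section had 17.7, 16.5, 12.4 and 16.9 CPM per kb, 1.43-fold lower in SPH (fold 0.697, 0.665 to 0.730; 0.750 with TMM factors). Of single regions chr17:46750391-46750776 had 7.84, 5.77, 1.95 and 4.51 CPM, 4.03-fold (2.14 to 8.24) lower in SPH. At its border, chr17:46723846-46724170 in LINC03057, SPH was instead highest with 60.8 CPM against 30.6 in DLD1, 1.99-fold (1.68 to 2.35) higher. From the next row to HOXB13 the mark was low, at 0.491, 0.326, 0.240 and 0.786 CPM per kb, and METS was 1.60-fold (1.32 to 1.95) higher with 16 of 18 regions higher.

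**Figure D5:**
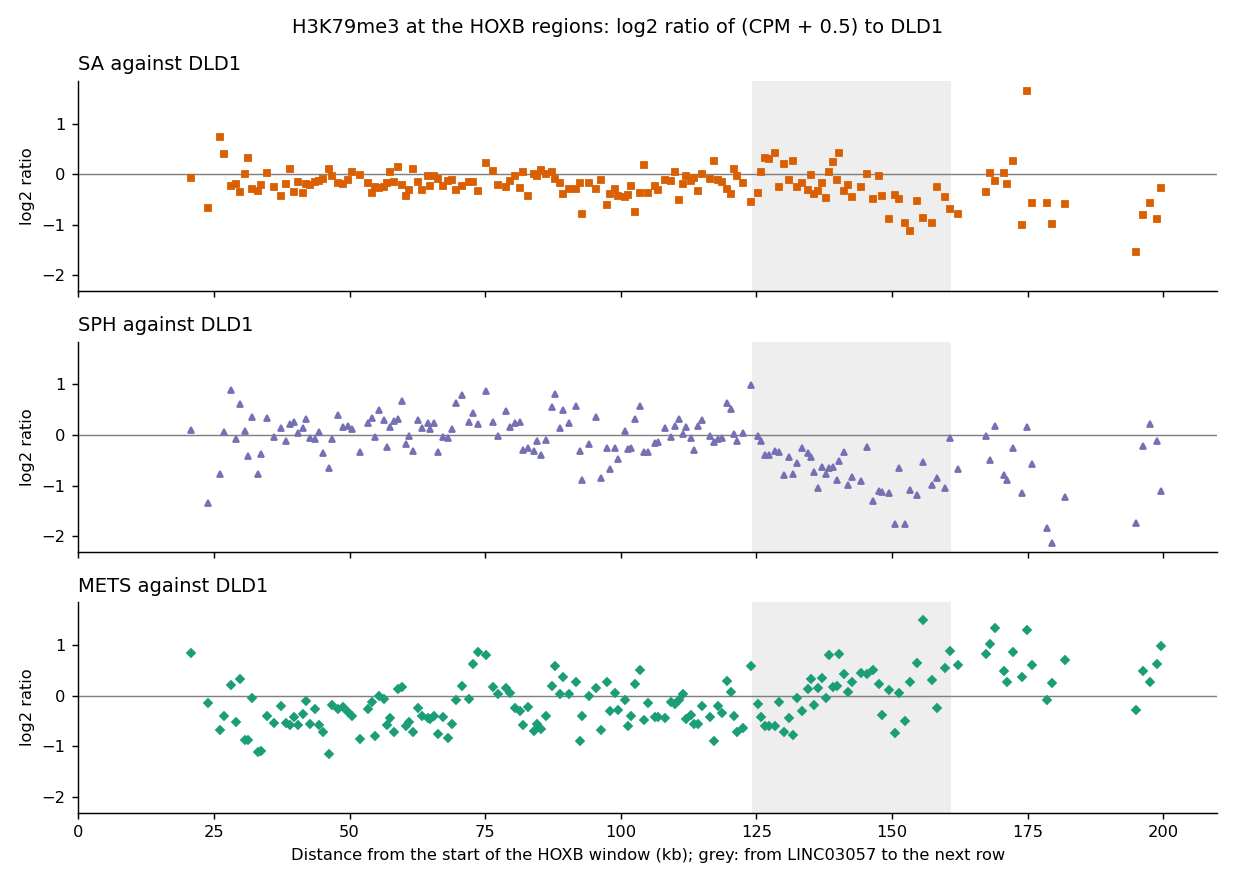
Log2 ratio of (CPM + 0.5) to DLD1 for H3K79me3 at the 174 HOXB regions, in 3 panels for SA, SPH and METS, against the distance from the start of the window (kb); grey marks the stretch from LINC03057 to the next row. In SPH all 40 regions of that stretch lie below 0, and in METS 23 lie above 0.

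Between the mesenchymal and the epithelial lines as groups of 2, the EVX2 region was the only HOX region that passed. At an unadjusted p under 0.05, 21 of 152 H3K4me3 regions (13 higher and 8 lower in the mesenchymal lines), 10 of 84 H3K27me3 rows (1 higher, 9 lower) and 16 of 306 H3K79me3 regions (1 higher, 15 lower) fell below it. Of all regions 11.0%, 8.81% and 2.99% did. No H3K27me3 row of the clusters passed the adjusted threshold with edgeR or DESeq2, where 0.343% and 0.294% of all rows passed higher and lower. No H3K79me3 region of any locus passed with edgeR (0% in both directions), and no HOX region passed with DESeq2. Each line stands for 1 replicate here, so these p-values measure the spread between 4 lines of 1 origin.

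The cofactors through which HOX proteins bind DNA are the PBX, MEIS and PKNOX homeodomain proteins, of whose 9 listed genes 7 could be placed on a row. H3K27me3 over PBX3 was 1.16 CPM per kb in DLD1 and 0.595, 0.568 and 0.526 in SA, SPH and METS. It passed 2-fold in SPH and METS, as the only cofactor row in either line, and none passed in SA. MEIS1 had 1.24, 0.796, 0.757 and 0.679, so that DLD1 was again the highest line. PKNOX2 was the most marked, with 2.28 to 2.88, and PBX2 among the least, with 0.129 to 0.155. The median log2 ratio over the 7 rows was -0.09, -0.11 and -0.14 in SA, SPH and METS, where over all rows it was -0.10, -0.07 and -0.02. Of the 6 cofactor genes with a counted H3K4me3 region, the 1 of MEIS1 was 2-fold higher in SPH, at 10.5 CPM against 4.31 in DLD1.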

How the data were processed

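Chromatin was precipitated with antibodies to 3 histone marks in 4 lines (12 libraries, 1 per line and mark) with the Diagenode iDeal kit, per the labels' protocols. The authors deposited unnormalized counts of reads for each region and line: the values are whole numbers and their totals differ between libraries. The build was hg19, per the submitters' processing notes. Aligner, peak caller and input control are not given in the sources used here. For H3K27me3 only chromosomes 1 to 19 were covered, its last line naming 7773 skipped entries.

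Counts were scaled to CPM by library totals. A 2-fold difference was called in CPM + 0.5, and no fold was formed where a count was 3 or lower. SA and SPH were compared with DLD1 and METS by edgeR 4.0.16 (quasi-likelihood, library totals, Benjamini-Hochberg over all regions of the mark, threshold 0.05). The model was also run on simulated counts drawn with its own estimate of the spread, with large changes planted in regions with many counts. That run does not bear on the smaller differences described here. SciPy 1.17.1 gave the intervals, which cover counting error only, since each line had 1 library per mark. In the deposited counts PCR copies cannot be told from other reads. With no hg19 annotation used here, H3K27me3 rows were named by matching the spacing and length of row ends to RefSeq gene ends of GRCh38.p14 within 200 bp. That placed 36 of 38 members, and HOXB2 and HOXD11 were placed by order and overlap. HOXC5 had a choice of rows that end within 3 bp of each other, and the shorter was used. Named were all members, the noncoding and flanking genes of the windows, HOX cofactors and, per cluster, the strongest and most different regions. Members and lists were chosen with earlier results of these data known, and the sections of the clusters after the values were seen. Alternatives were TMM factors, a minimum of 20 counts, 2 CPM added, a 1.5-fold threshold, DESeq2 1.42.0, leaving out each line, and stricter window borders.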

Additional observations from a re-analysis of the deposited data

How the results depend on the processing

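The number of HOX regions past 2-fold depended on the threshold and on the added value, and the cause was not tested. At a 1.5-fold threshold it went from 4 to 17 (SA), 8 to 34 (SPH) and 2 to 25 (METS) for H3K4me3, from 0 to 9, 2 to 15 and 4 to 13 for H3K27me3, and from 4 to 24, 17 to 76 and 15 to 89 for H3K79me3. With 2 CPM added it was 1 (SA) and 2 (SPH) for H3K4me3, 0 (SPH) and 1 (METS) for H3K27me3, and 0, 4 and 5 for H3K79me3. With at least 20 counts in both lines together, 10 H3K79me3 regions passed in SPH, fewer regions being counted. With TMM factors 1 H3K27me3 row passed in SA and 1 in SPH. Between the mesenchymal and epithelial lines, TMM factors left 0 H3K4me3 calls in place of 1. Leaving out each line in turn gave 1 to 16 calls for H3K4me3 (16 without SA, 10 higher and 6 lower), 0 to 2 for H3K27me3 (2 without DLD1, 2 without SA and 1 without METS) and 0 to 1 for H3K79me3 (1 without DLD1), where the lone line of a group is assumed to vary like the others. Under TMM factors the summed H3K79me3 folds in SA, SPH and METS were 0.910, 1.21 and 0.928 for HOXA and 0.919, 1.11 and 0.800 for HOXB, and the H3K27me3 folds in SA and SPH were 0.946 and 0.874 for HOXC and 0.847 and 0.818 for HOXD. The other 82 values behind the main comparisons kept their direction and size by the measure used, among them all stricter window borders. No paired analysis was possible because the labels give no replicate numbers and each line has 1 library per mark. Depth limits the short rows: HOXD4, with 6 to 21 counts, has a fold interval of 1.79 to 13.9 in SPH.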

Other observations

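Values of the smaller noncoding rows are added here. HOXB-AS1 had 24, 12, 28 and 35 H3K27me3 counts in DLD1, SA, SPH and METS, and HOTTIP had 0.546, 0.347, 0.355 and 0.499 CPM per kb. HAGLR, which starts beside HOXD1, had 1.14, 0.826, 0.814 and 1.25, with both mesenchymal lines below both epithelial lines. HOXD-AS2 had 1.82, 1.23, 1.34 and 1.47, highest in DLD1. The miRNA row MIR196A1 in HOXB had 0 counts in all 4 lines and MIR196B in HOXA had 0 or 1, whereas MIR196A2 in HOXC had 8 to 16 counts, although both MIR196A genes give the same mature miR-196a-5p. The 1 counted H3K79me3 region of HOXD, chr2:177036343-177036755 in the HOXD3 row, had 1, 0, 0 and 4 counts.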
